A study of Mus musculus with 28 samples.

Results

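The imprinted Dlk1-Dio3 locus was followed through 5 of its transcripts, Dlk1, Meg3, Rian, Mirg and the small nucleolar RNA (snoRNA) AF357341, in RNA recovered with PKR, a kinase that double-stranded RNA activates, from mouse embryonic fibroblasts. The members were the listed long transcripts and snoRNA of the locus, found by mapping the Ensembl identifiers of the files to symbols; all 5 were present among 30210 features. The fibroblasts had been given back either wild-type PKR (WT) or a PKR whose motifs that bind double-stranded RNA were each mutated (RM). They were then mock-treated or exposed to 0.1 mM palmitic acid, a saturated fatty acid. The 4 groups, WT mock, WT palmitate, RM mock and RM palmitate, thus share the MEF background and differ in the PKR put back and in the treatment. Which PKR the cells held before, and how the constructs were driven, was not given in the sources used here. PKR was precipitated from lysate, and its RNA was fragmented and cloned with a small RNA kit. Datasets A and B had 3 biological replicates in each group and dataset C had 1 library in each. The question of the study is which RNAs become enriched on WT PKR when palmitate is added. No input RNA or control precipitate was among the samples, so RNA abundance, recovery with PKR and background cannot be told apart, and neither can fewer cells of a type and less RNA per cell.

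At this locus the protein-coding genes Dlk1, Rtl1 and Dio3 are expressed from the paternal chromosome, and the noncoding RNAs Meg3, Rian and Mirg from the maternal one. Rian is a host of C/D box snoRNAs, small RNAs that carry a C box and a D box, most of which guide methylation of other RNAs; the brain-enriched snoRNAs of this locus have no known target for the most part. Mirg hosts a large cluster of miRNAs. Dlk1 encodes a transmembrane protein related to Notch ligands that restrains differentiation of fat precursor cells, Meg3 is a long nuclear RNA, and Dio3 inactivates thyroid hormone.

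On mm9, the build of the files, counted from 1, all 5 members lie on the plus strand of chromosome 12. Dlk1 spans 110691059 to 110701546, and Meg3 spans 110779211 to 110809936 with a counted exon length of 17848 bases. Rian spans 110842155 to 110899919 with 8197 counted bases, and Mirg spans 110973191 to 110987665 with 3175. AF357341 is a single exon of 75 bases from 110919729 to 110919803, between the Rian and Mirg features. The identifiers of Rian and Mirg are retired from the annotation at hand. They were named by the small RNAs that lie inside them: the Rian feature held 16 such named RNAs, all 16 of which lie in Rian in the annotation, and the Mirg feature held 9, all among the 12 in Mirg. From Dlk1 to Dio3 the files list 88 features, of which 57 are miRNAs, 23 are snoRNAs and 8 are others.

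The snoRNAs of the locus that passed the test in dataset B, as described further on, are shown first, because AF357341 has relatives of similar sequence in the same stretch. The sequences are those of GENCODE M21 (GRCm38), written as DNA 5′ to 3′, with a C box core (TGATGA) in the first 20 bases and a D box (CTGA) in the last 16 bases in capitals; Gm25856 is added as one of the 3 closest relatives of AF357341.
AF357341: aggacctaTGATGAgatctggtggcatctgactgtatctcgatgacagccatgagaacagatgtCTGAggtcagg
AF357428: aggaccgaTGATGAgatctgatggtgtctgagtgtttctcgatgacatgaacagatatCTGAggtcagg
Gm25856: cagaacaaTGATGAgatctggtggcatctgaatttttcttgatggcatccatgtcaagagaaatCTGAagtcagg
Gm23736: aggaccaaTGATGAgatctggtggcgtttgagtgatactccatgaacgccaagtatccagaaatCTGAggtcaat
AF357425: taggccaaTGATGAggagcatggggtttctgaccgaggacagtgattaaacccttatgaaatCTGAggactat
DQ267101: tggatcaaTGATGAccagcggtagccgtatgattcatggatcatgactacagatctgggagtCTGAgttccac
Gm24564: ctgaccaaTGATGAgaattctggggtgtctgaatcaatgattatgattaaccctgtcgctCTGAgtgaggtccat

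AF357428 was identical to AF357341 in 62 of 75 alignment columns (82.7%), Gm25856 in 59 of 75 (78.7%) and Gm23736 in 58 of 76 (76.3%). The next of the snoRNAs compared, Gm22981, had 73.7% identity, and the rest of the 16 had 55.3% to 65.4%. The relatives differ from AF357341 in at least 13 columns, yet how the authors' counting placed a fragment that fits 2 relatives is not given in the sources used here, so these counts are to that extent uncertain. On the transcribed strand, both boxes were found in 12 of the 17 snoRNAs tested at the locus and in 47 of all 82 annotated snoRNAs of 69 to 75 bases (57.3%). The matches describe the letters only.

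Total counts were 254762 to 8036622 in a library of datasets A and B and 7462653 to 11658726 in dataset C. The smallest total belonged to RM palmitate replicate 2 of A, which held 3 counts of Dlk1, 5 of AF357341 and 11 of Mirg. In dataset B, replicates 2 and 3 of RM palmitate had scaling factors of 0.82 and 0.637. WT mock replicate 1 of dataset B stood apart in the miRNAs of the locus as given further on. The fibroblast list had all 10 of its markers in the files with a summed level of 7312 to 13943 CPM in dataset A and 9287 to 25729 in dataset B. CPM (counts-per-million) of the marker lists are of the unscaled library totals, while those of single features elsewhere are taken after TMM scaling of the totals. On the same unscaled totals, the 7 immune markers summed to at most 3.7 CPM in any library, with 3 to 5 of them at 0 in every library of a group, the 4 endothelial markers to at most 2.8 and the 5 epithelial markers to at most 31.5. In dataset B the fibroblast sum was 17482 to 19393 CPM in WT mock, 21805 to 24445 in WT palmitate, 21271 to 25729 in RM mock and 9287 to 22201 in RM palmitate, so that WT mock lay under WT palmitate and RM mock on this scale; the part of this in the results below was not tested. Rtl1 and Mir127, which overlap on opposite strands, had 96 and 161520 counts over 24 libraries, so few reads of Mir127 were counted for Rtl1. Whether this came from counting by strand or from how overlapping features were counted was not tested.

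Per kilobase of counted length, AF357341 was the highest of the 5 members in all 8 groups, and Dlk1 the lowest. In WT mock of dataset A the levels were 917 CPM per kb for AF357341, 102 for Rian, 40.3 for Meg3, 11.5 for Mirg and 5.81 for Dlk1, and no neighbours in this order had overlapping libraries. The same order held in 6 of the groups, although the libraries of Meg3 and Mirg overlapped in WT palmitate of dataset A and those of Rian and Meg3 in WT palmitate of dataset B. The exceptions were WT mock and RM palmitate of dataset B, where Mirg stood above Meg3. In WT mock of dataset B, Mirg had 10.6 ± 9.77 and Meg3 2.47 ± 1.36 CPM per kb (SD, n = 3), and in RM palmitate of dataset B the libraries of Rian and Mirg, and those of Mirg and Meg3, overlapped. A length of 75 bases is near that of the fragments counted, so that the per-length level of AF357341 is not on the same footing as those of the long RNAs.

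**Figure D1:**
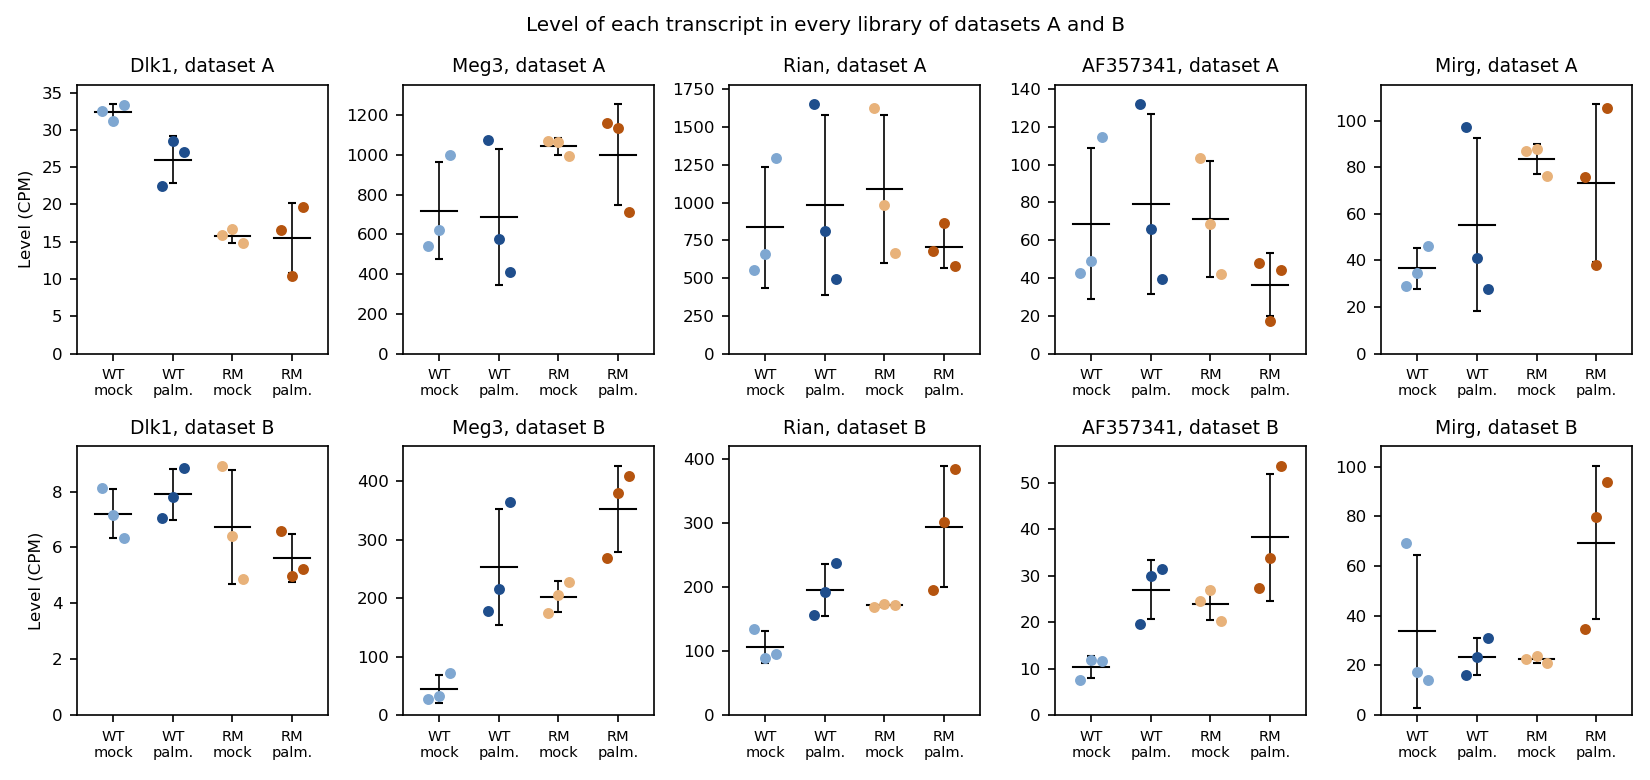
Levels of the 5 transcripts in CPM (vertical axes, linear and starting at 0, with a scale of their own in each panel) in the 4 groups (horizontal axes). Points are libraries in the order of their replicate numbers, lines are group means and bars are the SD over 3 libraries. In dataset B the 3 WT mock libraries of Meg3 (27.3 to 71.9 CPM) lie under all 9 others, and in dataset A the 3 WT mock libraries of Dlk1 (31.2 to 33.3 CPM) lie above all others.

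In dataset B, Meg3, Rian and AF357341 rose with palmitate in the WT precipitates, and Meg3 and AF357341 were lower with WT than with RM in mock-treated cells. Meg3 moved furthest, 5.76-fold up with palmitate. Dlk1 and Mirg passed no test in dataset B. In dataset A the only member that passed was Dlk1, which was 2.04-fold higher with WT than with RM in mock-treated cells. Differences were tested with edgeR's quasi-likelihood test across all features of a dataset, with Benjamini-Hochberg adjustment over all of them, and a feature counts as called at an adjusted p under 0.05; adjusted p-values come from this test unless another is named.

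Meg3 in dataset B was counted at 27.3, 33 and 71.9 CPM in WT mock and at 179, 216 and 365 CPM in WT palmitate. The RM mock libraries had 175, 206 and 227 CPM, and the RM palmitate libraries 268, 380 and 409. The WT mock libraries were thus lower than those of every other group, with no overlap, while WT palmitate and RM mock overlapped. With WT, Meg3 rose with palmitate by 2.53 ± 0.41 on the log2 scale (SE, adjusted p = 0.00513). With RM the difference was 0.80 ± 0.39 (adjusted p = 0.229, and 0.0161 with the replicate number as a block), and the difference between the palmitate effects of WT and RM was 1.73 ± 0.56 (adjusted p = 0.186), so the effects were not shown to differ; it passed with DESeq2 (adjusted p = 0.021), with the replicate number as a block (adjusted p = 0.0116), with scaling to total counts (adjusted p = 0.0212) and without WT mock replicate 3 (adjusted p = 0.0344). In mock-treated cells Meg3 was 4.61-fold lower with WT than with RM (log2 -2.20 ± 0.41, adjusted p = 0.00976), and under palmitate the difference was -0.47 ± 0.39 (adjusted p = 0.502). Both calls held in 11 of 11 alternatives, with log2 values of 2.16 to 3.09 and -2.76 to -1.96. In the authors' deposited table the log2 ratio of palmitate to mock for Meg3 in dataset B was 2.20 with WT and 0.73 with RM.

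In dataset A, Meg3 was counted at 541, 620 and 999 CPM in WT mock and at 1074, 578 and 412 CPM in WT palmitate. RM mock had 1071, 1066 and 995 CPM, and RM palmitate 1162, 1134 and 712. All 4 groups overlapped, WT mock and RM mock only through the highest WT library (999 CPM) and the lowest RM library (995 CPM). None of the comparisons passed: palmitate against mock was -0.07 ± 0.42 with WT (adjusted p = 0.975) and -0.06 ± 0.42 with RM (adjusted p = 0.975), and WT against RM was -0.54 ± 0.42 in mock (adjusted p = 0.534) and -0.54 ± 0.42 under palmitate (adjusted p = 0.541). The palmitate effect with WT was higher in dataset B than in dataset A by 2.53 ± 0.52 (adjusted p = 0.0355), a comparison added after the values were seen, in which 0.189% of 12683 features were called and 0.118% were called higher. Averaged over both datasets, Meg3 rose with palmitate with WT by 1.25 ± 0.26 (adjusted p = 0.00289) and was lower with WT than with RM in mock by -1.38 ± 0.26 (adjusted p = 0.00095); both calls held in 17 of 17 alternatives.

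Rian, the snoRNA host, was counted in dataset B at 135, 89.4 and 95.6 CPM in WT mock and 157, 192 and 238 CPM in WT palmitate. RM mock had 168, 173 and 172 CPM, the tightest group, and RM palmitate 196, 302 and 385. As for Meg3, the WT mock libraries were the lowest, and no WT mock library overlapped another group. Rian rose with palmitate with WT by 0.87 ± 0.23 (1.83-fold, adjusted p = 0.0269). Of 11 alternatives, 7 kept this call. It was lost on leaving out WT mock replicate 2 (adjusted p = 0.0786), WT mock replicate 3 (0.0574), WT palmitate replicate 2 (0.0517) or WT palmitate replicate 3 (0.0967). With RM the value was 0.78 ± 0.23 (adjusted p = 0.0625). It passed with DESeq2 (adjusted p = 0.0257) and without RM palmitate replicate 1 (adjusted p = 0.00383), and was 0.20 without RM palmitate replicates 2 and 3 (adjusted p = 0.871). The difference between the effects with WT and RM was 0.09 ± 0.33 (adjusted p = 0.932). WT against RM gave -0.68 ± 0.23 in mock (adjusted p = 0.0728), which passed with DESeq2 (adjusted p = 0.0444), without WT mock replicate 1 (adjusted p = 0.0299) and without RM palmitate replicates 2 and 3 (adjusted p = 0.0264). Under palmitate it gave -0.59 ± 0.23 (adjusted p = 0.139), which passed without RM palmitate replicate 1 (-0.81, adjusted p = 0.0133). In dataset A, Rian ranged from 496 to 1651 CPM over the 12 libraries, all groups overlapped, and no comparison passed (adjusted p = 0.591 to 0.981).

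Counts of Rian cannot be separated from those of the snoRNAs inside it. Of the 13 snoRNA features within its span, 7 lie inside an annotated exon of Rian. The counts of the 13 together equalled 49.6% to 106% of the counts of Rian in the libraries of dataset A. The range was 53.5% to 130% in dataset B, and 69% to 87.7% over dataset C. The share was highest in WT mock replicate 1 of dataset B. The 7 in an exon had 38.8% to 93.9% of the counts of Rian in dataset A. Their range was 45% to 103% in dataset B and 63.2% to 79.2% in dataset C. In WT mock replicate 1 of dataset B they had 1006 counts against 980 for Rian. Not all of their reads in that library were thus among the counts of Rian. Whether other reads of a snoRNA were also counted for Rian was not tested. For Meg3 the 2 miRNAs within its span, Mir1906-1 and Mir770, had at most 1.19%, 4.61% and 7.01% of its counts in a library of A, B and C. The 9 miRNAs within the Mirg feature had 327% or more of the counts of Mirg in every library of datasets A and B, so most of their reads were not among the counts of Mirg.

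AF357341, the snoRNA downstream of Rian, followed the direction of Meg3 in dataset B at a lower level. It was counted at 7.58, 11.9 and 11.5 CPM in WT mock and 19.7, 30 and 31.4 CPM in WT palmitate. RM mock had 24.7, 26.9 and 20.2 CPM, and RM palmitate 27.2, 33.8 and 53.6. WT mock lay under every other group, with no overlap. With WT it rose with palmitate by 1.38 ± 0.26 (2.61-fold, adjusted p = 0.00463), and in mock it was 2.34-fold lower with WT than with RM (log2 -1.23 ± 0.26, adjusted p = 0.00943). Both calls held in 11 of 11 alternatives, with log2 values of 1.21 to 1.59 and -1.35 to -1.05. With RM, palmitate against mock gave 0.63 ± 0.26 (adjusted p = 0.139), with 0.33 to 0.85 on leaving out 1 library, and it passed without RM palmitate replicate 1 (adjusted p = 0.0305). The difference between the palmitate effects was 0.75 ± 0.37 (adjusted p = 0.339). In the authors' deposited table the log2 ratio of palmitate to mock with WT in dataset B was 0.82 for AF357341 and 0.76 for Rian.

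In dataset A the libraries of AF357341 within a group spread widely, with 42.8, 48.8 and 115 CPM in WT mock and 132, 66.2 and 39.4 in WT palmitate. RM mock had 104, 68.4 and 42.1 CPM, and RM palmitate 47.9, 17.2 and 44.2, where the lowest is the shallow library with 5 counts. No comparison passed (adjusted p = 0.382 to 0.981). The values were 0.22 ± 0.51 for palmitate with WT, -0.80 ± 0.53 for palmitate with RM, -0.06 ± 0.51 for WT against RM in mock and 0.96 ± 0.53 under palmitate, the last of which passed with no filter on low counts (adjusted p = 0.0234).

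Dlk1 was the member with a difference in dataset A. Its levels there were 32.6, 31.2 and 33.3 CPM in WT mock and 22.4, 28.5 and 27.1 in WT palmitate, against 15.9, 16.7 and 14.8 in RM mock and 16.5, 10.3 and 19.6 in RM palmitate. Every WT library was higher than every RM library. In mock the difference was 1.03 ± 0.18 (2.04-fold, adjusted p = 0.00143), and under palmitate it was 0.57 ± 0.20 (adjusted p = 0.119). The mock call held in 9 of 10 alternatives and ended with scaling to total counts (0.84, adjusted p = 0.146), which shifted the median of all features to -0.18. Palmitate against mock gave -0.32 ± 0.18 with WT (adjusted p = 0.511) and 0.14 ± 0.19 with RM (adjusted p = 0.783).

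In dataset B, Dlk1 was counted at 6.35 to 8.13 CPM in WT mock, 7.04 to 8.86 in WT palmitate, 4.86 to 8.92 in RM mock and 4.99 to 6.60 in RM palmitate, with 9 to 72 counts in a library. The groups overlapped except WT palmitate, which lay above RM palmitate. WT against RM in mock was 0.07 ± 0.22 (adjusted p = 0.945) and under palmitate 0.45 ± 0.27 (adjusted p = 0.305). The mock difference in dataset B was smaller than that in dataset A by -0.94 ± 0.26 (adjusted p = 0.0448), also a comparison added after the values were seen, in which 2.52% of features were called and 1.59% were called lower. Averaged over both datasets, Dlk1 was higher with WT than with RM by 0.54 ± 0.13 in mock (adjusted p = 0.00624), a call that held in 16 of 17 alternatives and ended with scaling to total counts (0.47, adjusted p = 0.12). Under palmitate the average was 0.50 ± 0.15 (adjusted p = 0.0346), a call kept by 7 of 17 alternatives. It was lost on leaving out RM palmitate replicate 1 of A, 2 of B or 3 of B, or WT palmitate replicate 2 or 3 of A or 2 or 3 of B (adjusted p = 0.0563 to 0.0888, log2 0.45 to 0.50), and with 3 other settings (adjusted p = 0.0705 to 0.295).

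Mirg, the miRNA host, passed no comparison in the fits of dataset A or B. In dataset B it was counted at 69.4, 17.4 and 14.2 CPM in WT mock, 16.2, 23.2 and 31.1 in WT palmitate, 22.4, 23.7 and 21 in RM mock and 34.7, 79.8 and 93.8 in RM palmitate. WT mock replicate 1 stood far above the other WT mock libraries, and RM palmitate lay above RM mock without overlap. Palmitate against mock gave -0.53 ± 0.63 with WT (adjusted p = 0.613) and 1.60 ± 0.65 with RM (adjusted p = 0.161). Without WT mock replicate 1 the WT value was 0.58 (adjusted p = 0.439). In dataset A, Mirg was counted at 29, 34.5 and 46.4 CPM in WT mock and 86.9, 87.6 and 76.1 in RM mock, which did not overlap (log2 -1.19 ± 0.39, adjusted p = 0.115). That difference passed with scaling to total counts (adjusted p = 0.0206) and with no filter on low counts (adjusted p = 0.0012). WT against RM under palmitate in dataset A passed without WT palmitate replicate 1 (-1.22, adjusted p = 0.0194).

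**Figure D2:**
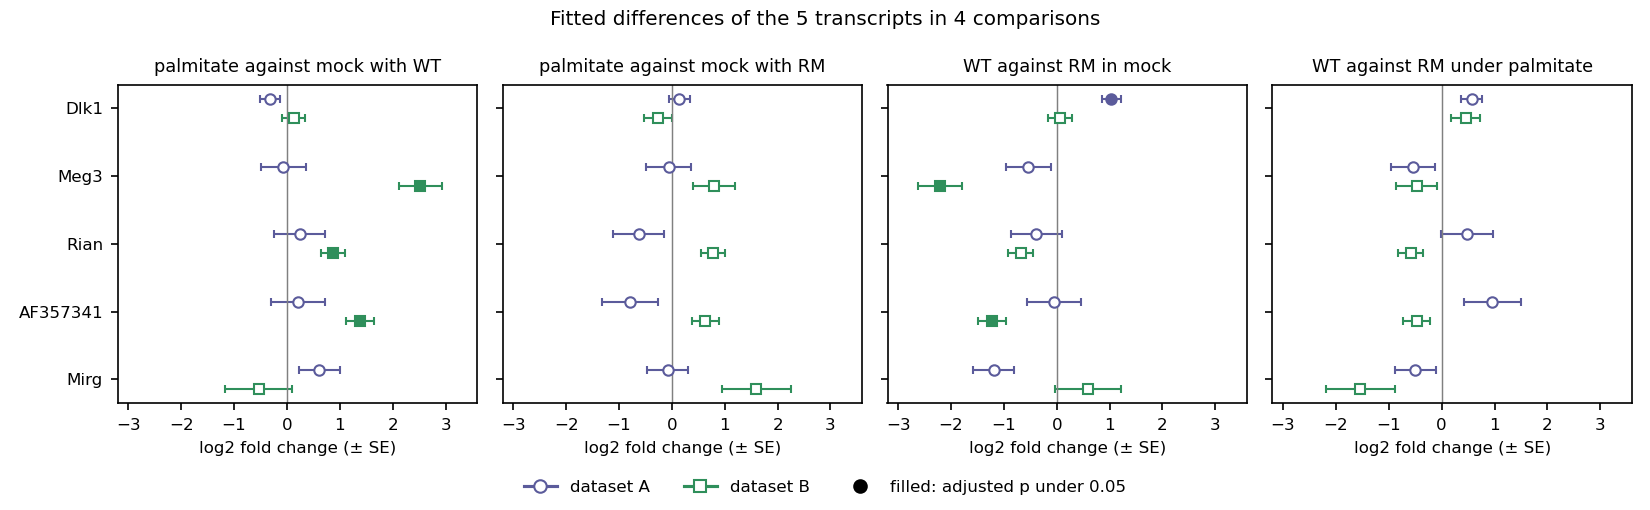
Log2 fold change with its SE (horizontal axes) of the 5 transcripts (rows) in 4 comparisons (panels), from the fits of dataset A (circles) and dataset B (squares), each over 12 libraries. Filled symbols passed an adjusted p of 0.05: Meg3, Rian and AF357341 for palmitate with WT in dataset B, Meg3 and AF357341 for WT against RM in mock in dataset B, and Dlk1 for WT against RM in mock in dataset A.

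Against all features, the members called were 3 of 5 for palmitate with WT in dataset B, all 3 higher, where 15.5% of 12466 features were called and 9.43% were called higher. For WT against RM in mock in dataset B they were 2 of 5, both lower, where 14.1% were called and 7.88% were called lower. In dataset A, 1 of 5 was called for WT against RM in mock, where 3.74% of 11328 features were called and 3.03% were called higher. The average over both datasets called 1 of 5 higher for palmitate with WT (9.52% of 12683 features called, 6.04% higher), 1 higher and 1 lower for WT against RM in mock (13.7% called, 6.61% higher and 7.08% lower) and 1 higher under palmitate (10.4% called, 5.54% higher). No member was called for palmitate with RM in dataset A (0.477%), dataset B (7.53%) or their average (9.04%), nor for palmitate with WT in dataset A (0.335%), nor for WT against RM under palmitate in dataset A (3.43%) or B (7.81%). The difference of the palmitate effect between WT and RM called no feature at all by edgeR in A, in B or for their average, where 469, 2011 and 1337 features had an unadjusted p under 0.05. DESeq2 called Meg3 for that difference in dataset B (log2 1.74, adjusted p = 0.021). Counted by overlap alone, WT palmitate and WT mock did not overlap for 3 of the 5 members in dataset B (38.8% of all features) and 1 in dataset A (18.4%), RM palmitate and RM mock for 4 in B (30.2%) and 0 in A (21%), WT and RM in mock for 3 in B (36.9%) and 2 in A (32.6%), and WT and RM under palmitate for 2 in B (29.9%) and 1 in A (18.6%). The comparisons of a dataset share groups, so that the low WT mock libraries of Meg3 and AF357341 enter both calls of each.

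Among the other features of the locus, most snoRNAs moved in the direction of Meg3 and AF357341 in dataset B. The 49 features tested there include the 5 members, 3 of which were called for palmitate with WT and are counted again here. The counts below are thus not of other features alone. Of the 49, 8 were higher with palmitate with WT and 0 were lower, where 9.43% of all features were higher. They were Meg3, Rian, AF357341, the snoRNAs AF357428 (1.22 ± 0.31), Gm23736 (1.26 ± 0.30), DQ267101 (1.62 ± 0.47) and Gm24564 (1.56 ± 0.49), and the miRNA feature Mir1906-1 inside Meg3 (1.89 ± 0.57), with adjusted p = 0.00463 to 0.0405. Gm24564 rests on 2 to 18 counts in a library of dataset B. Mir1906-1 and Mir770 together had 6 to 13 counts in its WT mock libraries and 13 to 46 in WT palmitate. Both lie inside an annotated exon of Meg3, and whether their reads were also counted for Meg3 was not tested. AF357428, the closest relative of AF357341, was counted at 3.03, 7.16 and 5.85 CPM in WT mock and 10.9, 13 and 13.4 in WT palmitate. Over the 14 snoRNAs tested the median log2 change was 0.80, with 12 above 0, and over the 31 miRNAs it was -1.75, with 29 below 0, where the median of all features was -0.05. Without WT mock replicate 1 the median of the miRNAs was -0.15, with 19 of 30 below 0, and that of the snoRNAs 1.38. DESeq2 gave 8 higher and 5 lower for this comparison. Leaving out WT mock replicate 1 gave 9 higher and 0 lower, leaving out WT mock replicate 2 gave 4 and 0, leaving out WT mock replicate 3 gave 8 and 6, and leaving out WT palmitate replicate 1, 2 or 3 gave 6, 4 or 2 higher and 0 lower.

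For WT against RM in mock in dataset B, 6.24% of all features were higher and 7.88% lower. Of the 49, members included, 1 was higher and 6 were lower, and 2 of the 6 were members. Those lower were Meg3, AF357341, the snoRNAs AF357428 (-1.14 ± 0.31), AF357425 (-1.51 ± 0.40) and Gm24564 (-1.51 ± 0.48), and Mir1188 (-1.98 ± 0.62), and the one higher was Mir369 (2.72 ± 0.85), with adjusted p = 0.00943 to 0.046. Mir369 averaged 7.29 counts in a library over datasets A and B, so its values in this paragraph rest on few counts. AF357425, which lies in Rian, was counted at 23.3, 12.5 and 16.2 CPM in WT mock and 34.7, 58.5 and 56 in RM mock. DESeq2 gave 13 higher and 7 lower for this comparison. Leaving out RM mock replicate 1 gave 0 higher and 4 lower, and leaving out RM mock replicate 2 or 3 gave 0 and 2. Leaving out WT mock replicate 1, 2 or 3 gave 0 and 7, 1 and 3, or 9 and 6. The median of the 14 snoRNAs tested was -0.39, with 10 below 0 and 4 above. The median of the miRNAs was 2.25 with 28 of 31 above 0, and 0.59 with 21 of 30 above 0 without WT mock replicate 1. With RM, Gm23736 (1.26 ± 0.30, adjusted p = 0.0217) and Mir369 (3.28 ± 0.93, adjusted p = 0.0448) rose with palmitate, where 5.08% of all features rose, and 48 of the 49 features had a value above 0, with a median of 1.22. For palmitate with RM, 7 rose with DESeq2, 6 without RM palmitate replicate 1, 3 with the replicate block, 1 without RM palmitate replicate 2, and 0 without RM palmitate replicate 3, without RM palmitate replicates 2 and 3, or without RM mock replicate 1, 2 or 3. WT against RM under palmitate in dataset B called none of the 49 by edgeR, with a median of -0.71 and 45 below 0, while DESeq2 called 6 lower and leaving out RM palmitate replicate 1 gave 5 lower.

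**Figure D3:**
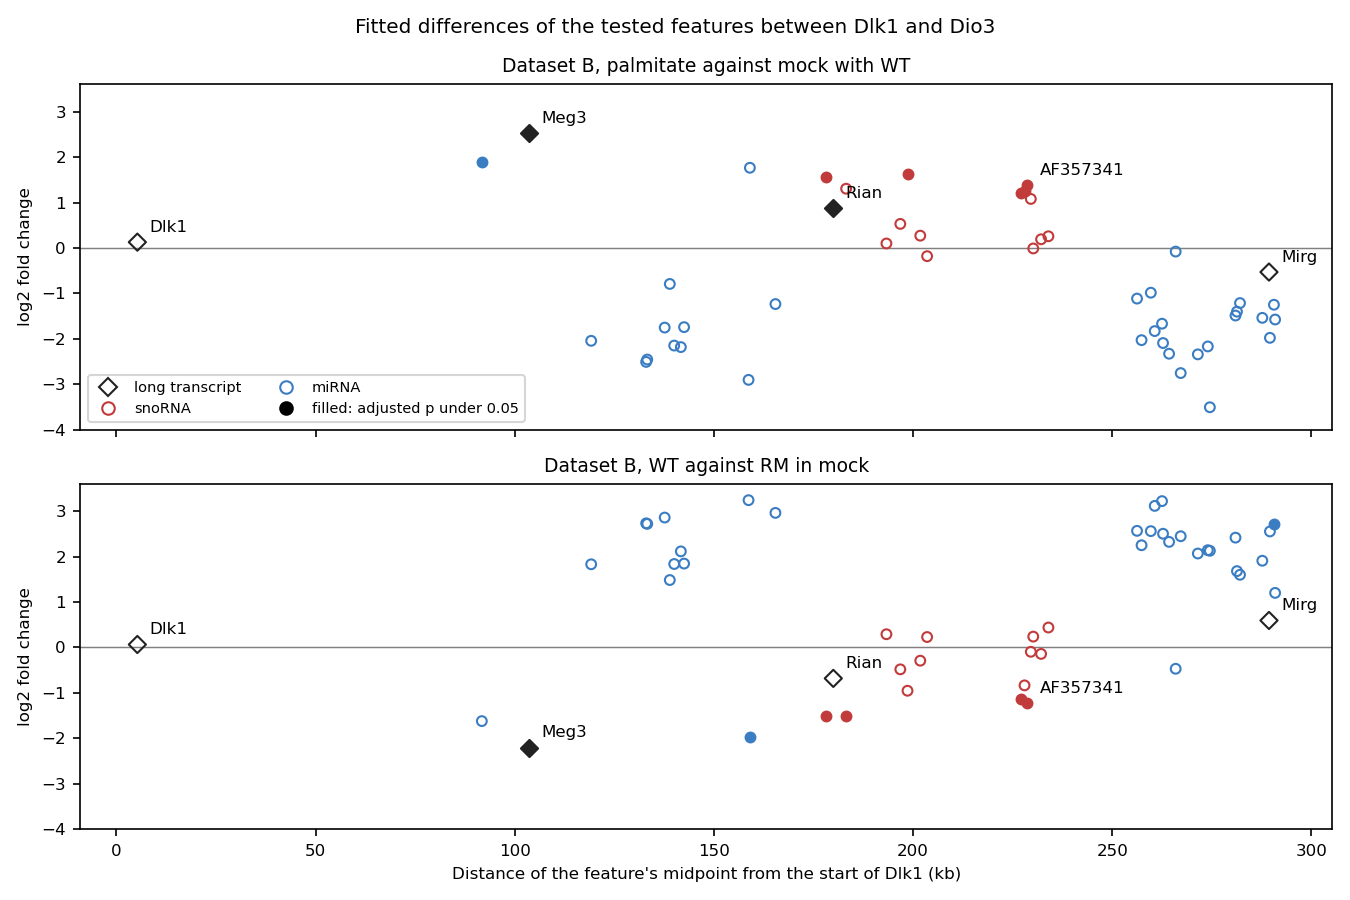
Log2 fold change (vertical axes) of each tested feature between Dlk1 and Dio3 in dataset B against the distance of its midpoint from the start of Dlk1 in kb (horizontal axes), for palmitate against mock with WT (top) and WT against RM in mock (bottom). Diamonds are long transcripts, circles are small RNAs, and filled symbols passed an adjusted p of 0.05. Most miRNA features (29 of 31 in the upper panel and 28 of 31 in the lower) lie on the other side of 0 from Meg3. Without WT mock replicate 1 these were 19 of 30 and 21 of 30. Of the 31, 1 is filled in the upper panel, Mir1906-1, on the side of Meg3. In the lower panel 2 are filled, Mir1188 on the side of Meg3 and Mir369 on the other.

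In dataset A, 56 features of the locus were tested. For WT against RM in mock, Dlk1 was higher and Mir341 (-1.40 ± 0.36, adjusted p = 0.0311) and Mir410 (-3.55 ± 0.80, adjusted p = 0.047) were lower, where 0.715% of all features were lower. None was called lower on leaving out RM mock replicate 1 or 2 or WT mock replicate 1 or 2, 1 without RM mock replicate 3 and with the replicate block, and 8 with no filter on low counts. With scaling to total counts 0 were higher and 2 lower. The other comparisons of palmitate or protein in dataset A called no feature of the locus as fitted. For WT against RM under palmitate, DESeq2 and scaling to total counts each gave 2 lower, no filter gave 6 higher and 6 lower, and leaving out 1 library gave 0 to 1 higher and 1 to 3 lower. For palmitate, no filter gave 3 higher with WT and 3 higher and 2 lower with RM, and leaving out RM palmitate replicate 3 gave 1 higher with RM. Mir410, in the Mirg cluster, was counted at 4.42, 2.78 and 5.29 CPM in WT mock and 42.1, 50.8 and 50.7 in RM mock, with no overlap. In dataset B its levels were 57.7, 13.9 and 8.19 CPM in WT mock and 10.9, 13.8 and 9.97 in RM mock, which overlapped. The mature sequences of both features, from RefSeq (GRCm38.p6), are given with the seed, bases 2 to 8, in capitals; the counts do not tell the arms apart, and no seed was shared.
miR-341-5p: cGGUCGGCcgaucgcucgguc
miR-341-3p: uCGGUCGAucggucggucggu
miR-410-5p: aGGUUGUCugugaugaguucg
miR-410-3p: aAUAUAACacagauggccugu

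None of the snoRNAs of dataset A passed for palmitate with either protein. With WT, 15 of the 17 tested had a value above 0 for palmitate (median 0.37), and with RM 16 of the 17 had a value below 0 (median -0.72). Without WT palmitate replicate 1 the median with WT was -0.11, with 5 of the 17 above 0. The difference of the palmitate effect had a median of 1.03 over them, where the median of all features was -0.0041, and 0 were called. Among them AF357341 had 1.01 for this difference, with 0.42 to 1.62 on leaving out 1 library. The RM side includes RM palmitate replicate 2, the library of 254762 counts, with 5 counts of AF357341.

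The locus as a whole took a larger part of the libraries in dataset A than in dataset B, apart from 1 library. Its features had 4028 to 8400 CPM of a library's unscaled total in dataset A and 920 to 2545 in 11 libraries of dataset B, while WT mock replicate 1 of dataset B had 8099. In that library the miRNA features of the locus had 7597 CPM on this scale, against 1086 and 620 in WT mock replicates 2 and 3, while its long transcripts had 264, against 157 and 211. Mir127 alone had 25521 counts in it, against 3389 and 1627. The miRNA features elsewhere in the genome had 82050 CPM in it and 67239 and 69255 in the other two. No comparison of the summed share passed an exact two-sided permutation test over libraries (p = 0.2 to 0.9 over 8 comparisons, adjusted p = 0.8 to 0.9), which cannot go below 0.1 with 3 against 3. The ratio of WT palmitate to WT mock in dataset B was 0.423 and became 1.30 without WT mock replicate 1, and that of WT to RM in mock was 2.56 and became 0.833.

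**Figure D4:**
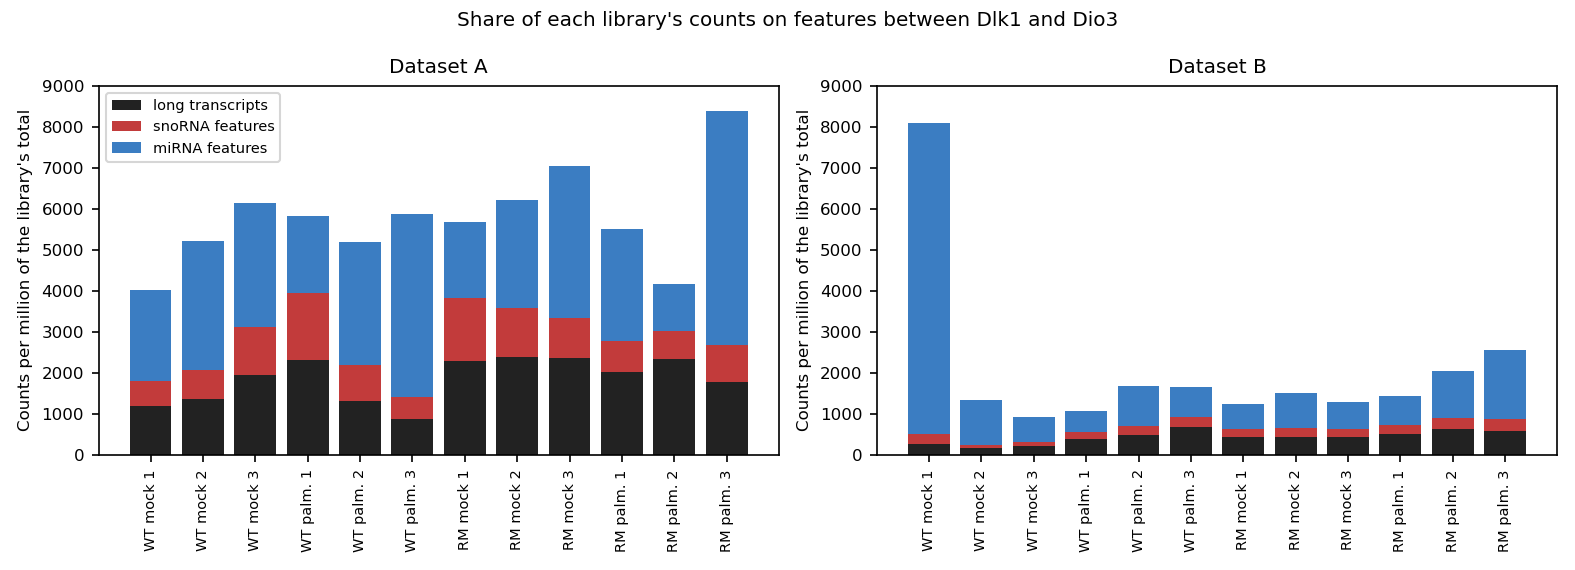
CPM of the library's unscaled total (vertical axes, starting at 0) on the features between Dlk1 and Dio3 in each library of datasets A and B (horizontal axes), split into long transcripts, snoRNA features and miRNA features. WT mock replicate 1 of dataset B reaches 8099, of which 7597 are miRNA features, and the other 11 libraries of dataset B lie between 920 and 2545.

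The remaining protein-coding genes of the locus were close to absent. Rtl1 had 0 to 11 counts in a library and Dio3 0 to 4. Of the 4 nearest tested neighbours outside the locus, Yy1 and Wars before Dlk1 and Ppp2r5c and Dync1h1 after Dio3, only Dync1h1 passed in dataset A or B, lower with WT than with RM in mock of dataset B (-0.72 ± 0.18, adjusted p = 0.0135).

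Of 48 other imprinted genes listed, 42 were in the files and 25 were tested in each of datasets A and B. For palmitate with WT in dataset B, 0 rose and 2 fell, Mest (-1.14 ± 0.31) and the matrix proteoglycan gene Dcn (-0.79 ± 0.24), with a median of -0.13 over the list, where 15.5% of all features were called. For WT against RM in mock of dataset A, 2 were higher and 0 lower, the cell cycle inhibitor Cdkn1c (1.96 ± 0.28) and Mest (0.95 ± 0.23), where 3.74% of all features were called. In mock of dataset B, where 14.1% were called, Sgce was higher (0.88 ± 0.25) and Peg3 (-0.85 ± 0.18) and Impact (-0.35 ± 0.11) were lower. Under palmitate Cdkn1c was higher with WT in dataset A (2.12 ± 0.33), where 3.43% were called, and in dataset B, where 7.81% were called, Cdkn1c (0.92 ± 0.26), Gnas (0.56 ± 0.16) and Cd81 (0.48 ± 0.13) were higher and the imprinted noncoding RNA H19 was lower (-1.72 ± 0.43). The adjusted p of these genes was 0.000152 to 0.0471. No listed gene was called for palmitate with WT in dataset A or for palmitate with RM in dataset A or B.

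Dlk1 is related to ligands of Notch receptors, and 13 genes of that pathway were listed. In dataset A 5 were tested, and Notch1 was lower with WT than with RM under palmitate (-0.93 ± 0.22, adjusted p = 0.0204), where 3.43% of all features were called. In dataset B 6 were tested, and Notch3 was lower with WT in mock (-0.89 ± 0.24, adjusted p = 0.0226), where 7.88% of all features were lower. No other listed gene of the pathway was called in the comparisons of either dataset.

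The features most like Meg3 in their levels over libraries were Neat1 (Pearson r = 0.988), Malat1 (0.973), Gabbr1 (0.952), Xist (0.942) and Snora47 (0.933). The measure was r of log2(CPM + 0.5) over the 24 libraries of datasets A and B after each dataset's mean was removed, among the 6837 features that averaged 50 counts or more; it is a description, and the points share their libraries. Neat1, Malat1 and Xist are long RNAs that stay in the nucleus. With WT in dataset B, Neat1 rose with palmitate by 2.33 ± 0.42 (adjusted p = 0.00661) and Malat1 by 2.20 ± 0.44 (adjusted p = 0.00806), beside 2.53 for Meg3. Gabbr1, Xist and Snora47 rose by 1.75, 1.62 and 1.57 (adjusted p = 0.000244 to 0.000661). For WT against RM in mock of dataset B, Neat1 had -2.16, Malat1 -2.11, Gabbr1 -2.11, Xist -1.86 and Snora47 -1.78, beside -2.20 for Meg3. Adjusted p of the features other than Meg3 was 6.51e-05 to 0.0107. They were chosen by levels in the same libraries, so these values only describe. The features most like Rian were the C/D box snoRNA Snord61 (0.964), Rabggtb (0.953), Snord45c (0.95), Snord7 (0.939) and Gm24134 (0.927). Snord45c lies in an intron of Rabggtb, and the 4 others than Rabggtb are snoRNA features. Palmitate with WT in dataset B gave 1.14 for Snord61, 0.94 for Rabggtb, 1.09 for Snord45c and 1.05 for Snord7 (adjusted p = 0.00332 to 0.0491). Gm24134 had 0.97 (adjusted p = 0.0548).

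Dataset C, with 1 library a group, was described without a test. Meg3 had 36.3 CPM in WT mock (32.1 to 40.9, exact 95% Poisson interval), 103 in WT palmitate (96.2 to 111), 263 in RM mock (253 to 273) and 146 in RM palmitate (139 to 153). Palmitate to mock was thus 2.84-fold with WT and 0.556-fold with RM. These are the 96th and the 4.85th percentiles among 11938 features, of which 12.3% were at least 2-fold higher and 4.1% lower with WT, and 4.96% higher and 3.64% lower with RM. Rian had 41.5, 78, 189 and 178 CPM in the same order, AF357341 6.57, 10.9, 27.6 and 22.6, Mirg 9.11, 15.4, 22.4 and 30.8, and Dlk1 5.23, 6.98, 31.3 and 50.7. With WT, all 5 members had a ratio of palmitate to mock above 1 (1.33 to 2.84), beside a median of 1.20 over all features. All 5 members were lower in the WT than in the RM libraries, but so were most features: 89.7% were at least 2-fold lower in mock and 87.6% under palmitate, and 0.729% and 1.58% at least 2-fold higher. Against medians over all features of -2.38 in mock and -2.30 under palmitate on the log2 scale, Meg3 had -2.85 and -0.50, and Dlk1 -2.55 and -2.84. Rian had -2.18 and -1.19, AF357341 -2.05 and -1.05, and Mirg -1.28 and -0.997, all above the medians. In mock AF357341, called lower with WT in dataset B, thus lay above the median (64.8th percentile). Dlk1, called higher with WT in dataset A, lay below it (40.8th). The intervals cover counting error only. No antisense count was found for any of the 5 in dataset C, whose antisense counts were 0.487% to 0.951% of a library.

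**Figure D5:**
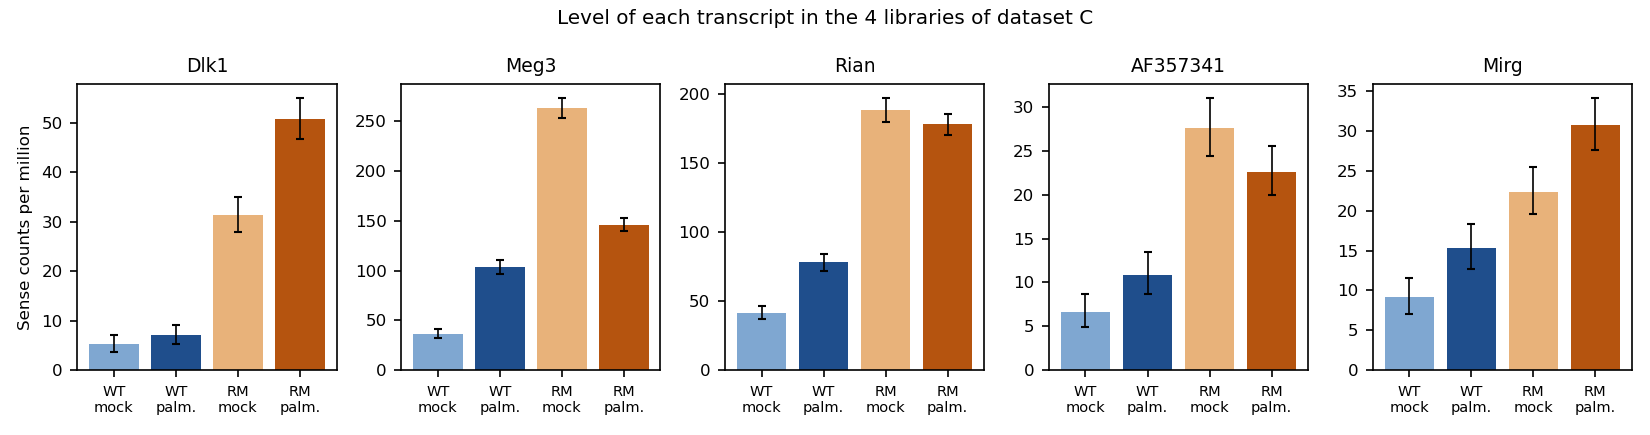
Sense CPM (vertical axes, starting at 0) of the 5 transcripts in the single libraries of dataset C (horizontal axes), with exact 95% Poisson intervals. Meg3 stands at 36.3 in WT mock and 103 in WT palmitate, and at 263 and 146 in the RM libraries.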

How the data were processed

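RNA precipitated with PKR was counted in 28 libraries. Per the submitters' processing notes, CASAVA 1.7.0 and 1.8.2 and Novoalign were used with mm9; how features were counted, and multiply mapped reads treated, was not given in the sources used here. Values deposited are raw counts per feature, for dataset C on each strand, of which the sense counts were used. They also hold the authors' log2 ratios of palmitate to mock, quoted as such, and a score of false discovery made by the authors, which is not quoted. Coordinates and exon lengths were also taken from the files. Of the columns, 32 of counts were used and 52 others per sample, such as FPKM and variance-corrected counts, were not.

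Counts were tested with edgeR 4.0.16 (R 4.3.3; quasi-likelihood, TMM, filterByExpr, robust, two-sided, Benjamini-Hochberg over all features), 12 libraries per dataset or 24 for averages. The fit was tested on simulated data. DESeq2 1.42.0, total counts, no filter, a replicate block and leaving libraries out were alternatives. Dataset C ratios used a prior count of 1 and features averaging 10 counts or more. Libraries of a group are biological replicates per the labels; no pair agreed within sampling noise (lowest chi-square per degree of freedom 4.43). Names came from GENCODE M21, which held 25755 of 29777 Ensembl identifiers, and coordinates from the files. Members are always named; other features of the locus, the imprinted and the Notch lists are named where they passed, with 4 flanking genes and the 5 features most like Meg3 and Rian. Members and lists were chosen with earlier results of these data known.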

Additional observations from a re-analysis of the deposited data

Results flagged for a closer look

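For 2 results the same contrast differed between datasets A and B in a test of the difference itself, by edgeR's quasi-likelihood test with Benjamini-Hochberg adjustment over 12683 features, chosen after the values were seen. The palmitate effect on Meg3 with WT was 2.53 higher in dataset B than in dataset A on the log2 scale (adjusted p = 0.0355), where 0.189% of features were called. This held in 9 of 17 alternatives and ended when WT mock replicate 1 or 3 of A, WT mock replicate 1 or 2 of B, WT palmitate replicate 2 or 3 of A or WT palmitate replicate 2 or 3 of B was left out (adjusted p = 0.0587 to 0.168). The difference between WT and RM in mock for Dlk1 was lower in dataset B than in dataset A by -0.94 (adjusted p = 0.0448), where 2.52% of features were called. It held in 4 of 17 alternatives, and ended in 11 of the 12 that left out a library. The column names of dataset B hold a mark, 2hr, that is explained nowhere in the labels, and dataset and condition cannot be told apart for this difference.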

How the results depend on the processing

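The alternatives were followed for 56 values of single members. These were all values of datasets A and B, but only those averages and differences between datasets that had passed. The 12 that passed among the 56 are therefore not a share of all values tested. In 167 repeats of those 12 the direction never reversed, while 37 repeats lost the call. Meg3 and AF357341 in dataset B and the averages of Meg3 lost none. Scaling to total counts moved the median of all features by more than 0.1 on the log2 scale: for WT against RM to -0.18 in mock of A, -0.39 under palmitate of A and 0.36 in B; for palmitate to -0.17 with WT in A, -0.13 with WT and -0.17 with RM on average, and -0.38 with RM in B; and for the difference of effects to -0.21 in A and 0.35 in B. Differences between datasets moved to 0.20 and 0.74 for WT against RM in mock and under palmitate, and to 0.14 and -0.41 for palmitate with WT and RM. With no filter, 2 members were called for WT against RM in mock of A and 1 under palmitate, in place of 1 and 0. The average of WT against RM under palmitate called 0 in place of 1 with DESeq2, with total counts and without RM palmitate libraries 2 and 3 of B. The difference of the palmitate effects in B called 1 in place of 0 with DESeq2, with total counts and with the replicate number as a block, and palmitate with RM in B called 1 in place of 0 with DESeq2 and with the block. The labels do not say that replicate numbers pair the libraries. Deviations from the group means correlated at -0.23 to 0.328 for the same number and -0.309 to 0.279 for different numbers in A. In B the ranges were -0.133 to 0.272 and -0.224 to 0.225. The ranges overlap and cannot decide whether the numbers pair libraries. With the replicate block AF357341 had 0.012 for WT against RM in mock of A, a reversal of a value that had not passed; the others were Meg3 for the difference of the effects in A with no filter (0.075) and Rian for WT against RM under palmitate of B without RM palmitate libraries 2 and 3 (0.0017). The cause was not tested.

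Leaving out 1 library at a time gave these ranges for values that had not passed and that changed sign. In dataset A, palmitate with WT ranged from -0.51 to 0.29 for Meg3, -0.32 to 0.75 for Rian, -0.0499 to 0.99 for Mirg and -0.33 to 0.84 for AF357341. Palmitate with RM in A ranged from -0.19 to 0.14 for Meg3 and -0.39 to 0.14 for Mirg. The difference of the effects in A ranged from -0.47 to 0.33 for Meg3 and -0.0042 to 1.05 for Mirg. WT against RM in A ranged from -0.66 to 0.29 for AF357341 in mock and from -0.12 to 0.83 for Rian under palmitate. In dataset B the ranges were -0.10 to 0.31 for Dlk1 and -0.51 to 0.94 for Mirg for WT against RM in mock, -0.87 to 0.58 for Mirg for palmitate with WT and -0.13 to 0.35 for Rian for the difference of the effects. The number of members called ranged from 0 to 3 for the average of WT against RM under palmitate, 0 to 1 in A and in B, 0 to 1 for the difference of the effects in B, 0 to 2 for palmitate with RM in B and 1 to 2 for the average of palmitate with WT. The ratio of summed shares of the locus ranged from 0.833 to 3.50 for WT against RM in mock of B, 0.809 to 1.16 under palmitate of A, 0.768 to 1.10 for palmitate with RM of A, 0.993 to 1.22 for palmitate with WT of A and 0.309 to 1.30 in B. Over features longer than 200 bases the ratios were 0.490 for WT against RM in mock of B, and 0.996 in A and 2.42 in B for palmitate with WT. Depth limits RM palmitate replicate 2 of A most, where 3 counts carry Dlk1.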
